A study of Mus musculus with 24 samples.

Results

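Adipogenic transcription factors are the regulators that turn fibroblast-like precursors into fat cells and keep the mature cell's gene program running. The account here covers 7 of them in epididymal white adipose tissue (eWAT): Pparg, Rxra, Cebpa, Cebpb, Cebpd, Klf15 and Zfp423, chosen by their gene symbols. All 7 were found among the 16730 genes of the count table, and all 7 were among the 15020 genes that reached 1 CPM (a gene's counts scaled to a common library total) in 3 or more libraries, which were the genes tested. The study asked how deleting laminin alpha 4 (Lama4), a chain of the basement membrane around fat cells, from adipocytes alters eWAT under chow and under a high-fat diet (HFD). RNA from 24 male mice was measured, 1 library per mouse. Either genotype, Lama4 fl/fl or Lama4 AKO, was fed chow or HFD, which made 4 groups of 6.

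All mice carried loxP sites around exon 3 of both Lama4 copies, and the Lama4 fl/fl mice were the floxed littermate controls. The Lama4 AKO mice also carried Cre recombinase driven by the adiponectin promoter, which is active in mature fat cells, so the blood vessels, immune cells and precursors of the pad keep the gene. Mice received chow (5015) or a diet with 45% fat for 20 weeks and were 24 to 26 weeks old when the tissue was taken. QuantSeq reads the 3′ end of polyadenylated RNA and so gives 1 value per gene, whatever the number of its transcripts. The Lama4 value is no check of the deletion, since the deleted exon lies outside the 3′ tag, and whether a transcript without that exon persists was not tested. Its edgeR log2 difference between Lama4 AKO and Lama4 fl/fl mice was 0.11 on chow (adjusted p = 0.980) and -0.69 on HFD (adjusted p = 0.347).

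Fat cell formation runs as a relay. C/EBPβ and C/EBPδ, the proteins of Cebpb and Cebpd, appear within hours of a hormonal signal and switch on Pparg and Cebpa. PPARγ, the target of the thiazolidinedione drugs, pairs with RXRα, the product of Rxra, on the DNA of most adipocyte genes, and PPARγ and C/EBPα then maintain each other. KLF15 is a zinc-finger factor that acts in differentiation and in the handling of glucose and amino acids, and ZFP423 commits precursors to the fat lineage before PPARγ appears and restrains the thermogenic program in mature white fat.

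Promoter windows of 4 members are printed to show where the letters of motifs known from this relay lie. For 6 of the 7 genes, RefSeq windows of GRCm38.p6 were read, and the 250 bases before each of 10 transcript starts were searched on both strands for 4 motifs: the C/EBP motif TTGCNNAA, the E-box CACGTG, the CRE half-site TGACG and the TATA box TATAAA, which do not overlap in any window shown. Capitals mark the matches. The sequences run 5′ to 3′ on the coding strand, which is the forward strand for all 4.
Pparg, chr6:115421816-115422065: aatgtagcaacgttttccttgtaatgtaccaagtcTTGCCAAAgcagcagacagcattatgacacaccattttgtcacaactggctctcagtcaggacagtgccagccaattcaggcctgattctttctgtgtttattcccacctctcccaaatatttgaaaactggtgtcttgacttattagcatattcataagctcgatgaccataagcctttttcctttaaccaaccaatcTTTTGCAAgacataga
Cebpa, chr7:35119043-35119292: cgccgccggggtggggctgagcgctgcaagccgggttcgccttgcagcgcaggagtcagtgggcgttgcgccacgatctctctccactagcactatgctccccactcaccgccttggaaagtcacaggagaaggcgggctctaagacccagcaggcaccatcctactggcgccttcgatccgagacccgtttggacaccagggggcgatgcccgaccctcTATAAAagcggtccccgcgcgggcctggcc
Cebpb, chr2:167688665-167688914: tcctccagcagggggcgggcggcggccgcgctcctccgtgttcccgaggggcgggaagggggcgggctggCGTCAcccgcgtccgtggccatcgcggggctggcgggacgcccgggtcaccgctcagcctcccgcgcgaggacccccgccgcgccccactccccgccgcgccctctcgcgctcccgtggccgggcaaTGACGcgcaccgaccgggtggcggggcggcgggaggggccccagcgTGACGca
Klf15, chr6:90462326-90462575: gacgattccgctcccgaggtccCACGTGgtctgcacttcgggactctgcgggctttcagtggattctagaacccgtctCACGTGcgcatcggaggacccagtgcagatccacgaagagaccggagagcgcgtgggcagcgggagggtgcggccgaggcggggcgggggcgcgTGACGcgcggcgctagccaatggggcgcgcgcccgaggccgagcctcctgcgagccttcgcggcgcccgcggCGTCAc

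The Pparg window lies before the downstream start of the gene, that of the adipocyte form PPARγ2, and is the only one of 3 Pparg windows with the C/EBP motif. Its matches lay at 215 to 208 and at 16 to 9 bases before the start. The C/EBP motif was found in 9.56% of 32851 mouse windows of this length. The Cebpa window held a TATA box at 30 to 25 bases before the start, as did 12.4% of all windows. The Cebpb window held 3 CRE half-sites, the element bound by CREB, and 17.8% of all windows held at least 1. The Klf15 window held 2 E-boxes, found in 6.02% of all windows, and 2 CRE half-sites. A Zfp423 window (chr8:87959596-87959845, reverse strand) held 1 C/EBP motif, and neither Rxra window held any of the 4. A match describes the letters only, and these data do not say whether a factor was bound there.

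Differences were read as log2 fold changes from an edgeR model of the counts of all 24 libraries. The study's own criteria were used to call a gene: a fold change of 1.5 or more, an unadjusted p no higher than 0.001, and 2 CPM or more on average in whichever group was higher. In addition, p-values adjusted over the 15020 genes by the method of Benjamini and Hochberg are given beside them. Levels are given as log2 CPM after TMM scaling, which corrects for unequal library composition. Library totals lay between 5579590 and 18764516 counts, and every library had at least 24 counts of each member. The first principal component carried 45.8% of the variance. One library went against its label in the predicted gene Gm28586. HFD-fed Lama4 fl/fl replicate 2 had 33 counts of it, which had 6 to 50 counts in every Lama4 AKO library and 0 in the other 11 Lama4 fl/fl libraries. Whether the genotype label of that library is right was not tested, and all contrasts with HFD-fed Lama4 fl/fl mice include it. Values without that library are given beside the results of Pparg and Klf15, the members it moved most.

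A smaller set of 19 mice is given beside the full set, because the study removed outlying mice that its methods do not name. The set leaves out 1 chow-fed Lama4 fl/fl mouse (replicate 3), 1 chow-fed Lama4 AKO mouse (replicate 5) and 3 Lama4 fl/fl mice on HFD (replicates 3, 4 and 6). It was inferred from expression in these libraries, so it is not independent evidence for any value here. It matters for these genes: the 3 HFD-fed Lama4 fl/fl mice left out held the highest Pparg and Klf15 levels of that group.

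None of the 7 genes met the study's criteria in any comparison of the 24 mice. Across all genes tested, 0.173% met them between diets in Lama4 fl/fl mice, 4.12% between diets in Lama4 AKO mice, 0.113% between genotypes on chow, 0.173% between genotypes on HFD, 0.386% in the interaction of diet and genotype, and 2.25% between diets averaged over genotypes. The nearest were Cebpa, lower on HFD in Lama4 AKO mice at an adjusted p of 0.0224, and Cebpb, higher on HFD in Lama4 fl/fl mice at an unadjusted p of 0.00136. With an adjusted p of at most 0.05 in place of the unadjusted limit, Cebpa in Lama4 AKO mice was the 1 member called, where 22.1% of all genes reached that adjusted p.

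**Figure D1:**
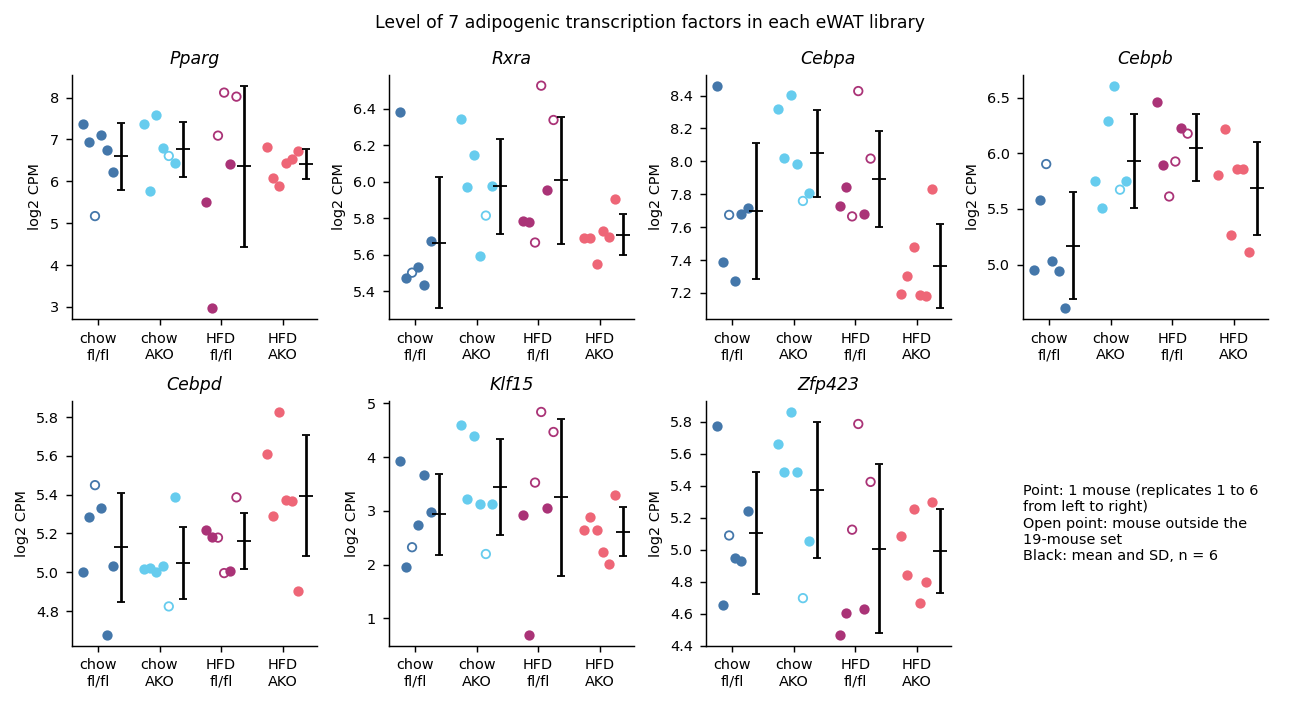
Each panel plots the log2 CPM of 1 gene in every library by group, with replicates 1 to 6 from left to right, open points for mice outside the 19-mouse set, and the mean and SD of 6 mice in black. Pparg and Klf15 spread most widely, Cebpa sat low in 5 of 6 HFD-fed Lama4 AKO mice, and Cebpb sat low in chow-fed Lama4 fl/fl mice.

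Pparg (ENSMUSG00000000440, chromosome 6, 115360951 to 115490399, forward strand, GRCm38) encodes the master regulator of fat cell formation. The lowest, median and highest log2 CPM of the gene were 5.17, 6.86 and 7.36 in chow-fed Lama4 fl/fl mice and 5.78, 6.70 and 7.59 in chow-fed Lama4 AKO mice. In HFD-fed Lama4 AKO mice they were 5.90, 6.49 and 6.82. The 6 HFD-fed Lama4 fl/fl mice had 5.51, 2.97, 7.09, 8.12, 6.42 and 8.02. That last group held both the lowest and the highest Pparg levels of the study: 2 mice lay above every chow-fed Lama4 fl/fl mouse, 1 lay below them all, and all groups overlapped.

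The SD of Pparg was 1.93 in HFD-fed Lama4 fl/fl mice against 0.36 in HFD-fed Lama4 AKO mice. The pooled SD within groups was 1.11, above that of 95.7% of all genes tested and of 98.6% of the 1000 genes nearest in level. Replicate 2 of the HFD-fed Lama4 fl/fl mice, the library with Gm28586, had 125 counts of Pparg in 16158030, which was 4.06 log2 units below the mean of the other 5 mice of its group. Of 15020 genes, 15 lay as far or farther below that mean in this library. The low value was shared by Klf15 (24 counts, 3.06 log2 units below), whereas the other 5 members lay between 0.48 below and 0.03 above.

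With such a spread the direction of Pparg depended on how the group was summarised. The edgeR log2 fold change of HFD against chow in Lama4 fl/fl mice, a ratio of mean counts, was 0.33 (SE 0.51, adjusted p = 0.871), while limma-voom, which averages logs, gave -0.23, and the mean log2 CPM was lower on HFD (6.36 against 6.60). It was 0.58 without replicate 2 of the HFD group and -1.40 in the 19 mice (edgeR adjusted p = 0.0474, a limit of 0.05 that 29% of all genes reached there), or -0.90 in those mice without replicate 2 (adjusted p = 0.107). Over 10 alternatives, apart from leaving out single mice, that adjusted p ran from 0.0116 to 0.982. Between diets in Lama4 AKO mice the log2 fold change was -0.43 (SE 0.51, adjusted p = 0.540). Between genotypes it was 0.13 on chow (adjusted p = 0.984) and -0.63 on HFD (SE 0.51, adjusted p = 0.532), the last of which was 0.92 in the 19 mice and -0.88 in the 24 without replicate 2. In the 24 mice no difference in Pparg between groups was larger than the spread between mice, and the order of the 4 group means had no neighbours farther apart than the larger of their SDs.

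Rxra (ENSMUSG00000015846, chromosome 2, 27676440 to 27762957, forward strand) encodes the partner with which PPARγ binds DNA. Across mice the lowest, median and highest log2 CPM were 5.43, 5.52 and 6.38 in chow-fed Lama4 fl/fl mice and 5.60, 5.97 and 6.35 in chow-fed Lama4 AKO mice. They were 5.67, 5.87 and 6.53 in HFD-fed Lama4 fl/fl mice and 5.55, 5.70 and 5.91 in HFD-fed Lama4 AKO mice. Chow-fed Lama4 fl/fl replicate 1 stood alone at the top of its group, and the groups overlapped. HFD against chow gave a log2 fold change of 0.34 in Lama4 fl/fl mice (SE 0.17, adjusted p = 0.572) and -0.28 in Lama4 AKO mice (SE 0.17, adjusted p = 0.219). Lama4 AKO against Lama4 fl/fl gave 0.29 on chow (adjusted p = 0.916) and -0.33 on HFD (adjusted p = 0.357). Chow-fed and HFD-fed Lama4 AKO mice were neighbours in the order of means and lay 0.26 apart, just over the larger SD of 0.26.

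Cebpa (ENSMUSG00000034957, chromosome 7, 35119293 to 35121928, forward strand) encodes the factor that sustains the mature adipocyte together with PPARγ and is needed for insulin-stimulated glucose uptake. In log2 CPM the lowest, median and highest values were 7.76, 8.0 and 8.40 in chow-fed Lama4 AKO mice and 7.18, 7.25 and 7.83 in HFD-fed Lama4 AKO mice. In Lama4 fl/fl mice they were 7.27, 7.68 and 8.46 on chow and 7.67, 7.79 and 8.43 on HFD. Of the 6 HFD-fed Lama4 AKO mice, 5 lay below every chow-fed Lama4 AKO mouse and below every HFD-fed Lama4 fl/fl mouse, and replicate 6, at 7.83, overlapped both groups.

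Between diets in Lama4 AKO mice the log2 fold change of Cebpa was -0.69 (SE 0.19), a level 0.621 times that on chow, with an unadjusted p of 0.00129 and an adjusted p of 0.0224. This passed an adjusted p of 0.05 and missed the study's unadjusted limit. The log2 fold change was -0.74 in the 19 mice, where Cebpa met all the study's criteria (adjusted p = 0.00512) as did 15.7% of all genes, and the adjusted p was at most 0.0352 in each of the 10 alternatives that left out no single mouse from the 24. With single mice left out it ran from 0.00955 to 0.0599, above 0.05 without chow-fed Lama4 AKO replicate 1 (0.0519) or 3 (0.0599) or HFD-fed Lama4 AKO replicate 4 (0.0521). The unadjusted criteria were met without chow-fed Lama4 fl/fl replicate 1, chow-fed Lama4 AKO replicate 5 or 6, HFD-fed Lama4 fl/fl replicate 4 or HFD-fed Lama4 AKO replicate 6, at values of -0.69 to -0.80.

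In Lama4 fl/fl mice the same diet contrast of Cebpa was 0.17 (SE 0.19, adjusted p = 0.809). The test of the difference between the genotypes, the interaction, gave -0.85 (SE 0.27, unadjusted p = 0.00372, adjusted p = 0.238), so a diet effect that differed between genotypes did not pass. Between genotypes the log2 fold change was 0.32 on chow (SE 0.19, adjusted p = 0.916) and -0.54 on HFD (SE 0.19, adjusted p = 0.291).

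Cebpb (ENSMUSG00000056501, chromosome 2, 167688915 to 167690418, forward strand) encodes an early factor of the relay that also acts in inflammatory and stress signalling. Its lowest, median and highest log2 CPM were 4.61, 4.99 and 5.90 in chow-fed Lama4 fl/fl mice and 5.61, 6.05 and 6.46 in HFD-fed Lama4 fl/fl mice. In Lama4 AKO mice they were 5.51, 5.75 and 6.61 on chow and 5.11, 5.83 and 6.22 on HFD. The chow-fed Lama4 fl/fl mice were the low group, with 4 of 6 HFD-fed Lama4 fl/fl mice above them all, and their replicate 3, at 5.90, reached into that group. The mean of chow-fed Lama4 fl/fl mice lay 0.52 below the next group mean, more than the larger SD of 0.48, whereas the other 3 groups lay within their SDs of each neighbour.

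The log2 fold change of Cebpb between diets was 0.84 in Lama4 fl/fl mice (SE 0.23, unadjusted p = 0.00136, adjusted p = 0.433) and -0.25 in Lama4 AKO mice (SE 0.23, adjusted p = 0.417). Between genotypes it was 0.75 on chow (SE 0.23, unadjusted p = 0.00353, adjusted p = 0.652) and -0.34 on HFD (SE 0.23, adjusted p = 0.460). The interaction was -1.09 (SE 0.33, unadjusted p = 0.00270, adjusted p = 0.235). The first diet contrast, the chow genotype contrast and the interaction all rest on the same group of chow-fed floxed controls.

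Leaving out replicate 3 of that group brought Cebpb within the study's criteria in all 3 of these comparisons, at 1.02, 0.93 and -1.27. Leaving out chow-fed Lama4 AKO replicate 4 or HFD-fed Lama4 fl/fl replicate 3 did so for the diet contrast in Lama4 fl/fl mice, at 0.86 and 0.94. In the 19 mice, which lack that replicate 3, the log2 values were 1.16 (adjusted p = 0.00386), 0.98 (adjusted p = 0.320) and -1.46 (adjusted p = 0.118), and Cebpb met the unadjusted criteria in each. Over the same 10 alternatives the adjusted p of the diet contrast ran from 0.00339 to 0.796. Of all genes in the 19 mice, 11.8% met the criteria between diets in Lama4 fl/fl mice, 0.209% between genotypes on chow and 0.68% in the interaction. Exons of Tmem189 lie on the opposite strand over part of Cebpb. Whether the counting used strand is not given in the sources used here, so reads of the 2 genes may be mixed. Tmem189 had a mean log2 CPM of 6.03 on chow and 6.22 on HFD in Lama4 fl/fl mice, and of 5.87 and 6.82 in Lama4 AKO mice; its part in the values of Cebpb was not tested.

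Cebpd (ENSMUSG00000071637, chromosome 16, 15887286 to 15891031, forward strand) encodes the other early factor, which glucocorticoids and cytokines induce. Its lowest, median and highest log2 CPM were 4.68, 5.16 and 5.45 in chow-fed and 5.0, 5.18 and 5.39 in HFD-fed Lama4 fl/fl mice. They were 4.82, 5.02 and 5.39 in chow-fed and 4.90, 5.37 and 5.83 in HFD-fed Lama4 AKO mice. The groups overlapped, with 2 HFD-fed Lama4 AKO mice above every mouse of the chow-fed Lama4 AKO group. Cebpd was the steadiest member, with a pooled SD of 0.24, above that of 14.8% of all genes. Between diets its log2 fold change was 0.015 in Lama4 fl/fl mice (SE 0.14, adjusted p = 0.982) and 0.37 in Lama4 AKO mice (SE 0.14, unadjusted p = 0.0183, adjusted p = 0.0668). It was the 1 member with a positive estimate in that last contrast. Between genotypes it was -0.09 on chow (adjusted p = 0.965) and 0.26 on HFD (adjusted p = 0.389). Exons of Spidr overlap Cebpd on the opposite strand, with the same limit as for Cebpb; Spidr had mean log2 CPM of 2.30 in chow-fed and 2.23 in HFD-fed Lama4 AKO mice.

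Klf15 (ENSMUSG00000030087, chromosome 6, 90462576 to 90475238, forward strand) encodes a glucocorticoid-responsive factor that promotes Slc2a4, the insulin-responsive glucose transporter. Its lowest, median and highest log2 CPM were 1.96, 2.86 and 3.93 in chow-fed Lama4 fl/fl mice and 2.20, 3.17 and 4.60 in chow-fed Lama4 AKO mice. They were 0.70, 3.29 and 4.84 in HFD-fed Lama4 fl/fl mice and 2.01, 2.64 and 3.29 in HFD-fed Lama4 AKO mice. As with Pparg, the HFD-fed Lama4 fl/fl mice held both extremes and all groups overlapped.

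The pooled SD of Klf15 was 0.97, above that of 92.2% of all genes. Its diet contrast was 0.64 in Lama4 fl/fl mice (SE 0.49, adjusted p = 0.705) and -1.02 in Lama4 AKO mice (SE 0.50, unadjusted p = 0.0505, adjusted p = 0.127). Between genotypes it was 0.60 on chow (SE 0.49, adjusted p = 0.952) and -1.07 on HFD (SE 0.50, unadjusted p = 0.0419, adjusted p = 0.327). The interaction was -1.67 (SE 0.70, adjusted p = 0.277). When replicate 2 of the HFD-fed Lama4 fl/fl mice was left out, the diet contrast in Lama4 fl/fl mice was 0.88 (adjusted p = 0.496), the genotype contrast on HFD -1.30 (adjusted p = 0.129) and the interaction -1.90 (adjusted p = 0.127). In the 19 mice the contrast in Lama4 fl/fl mice was -0.68 and the genotype contrast on HFD 0.14, both of opposite sign to the full set, and in Lama4 AKO mice it was -1.19 (adjusted p = 0.0288).

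Zfp423 (ENSMUSG00000045333, chromosome 8, 87661810 to 87959595, reverse strand) encodes the commitment factor. Its lowest, median and highest log2 CPM were 4.65, 5.02 and 5.77 in chow-fed Lama4 fl/fl mice and 4.70, 5.49 and 5.86 in chow-fed Lama4 AKO mice. They were 4.47, 4.88 and 5.79 in HFD-fed Lama4 fl/fl mice and 4.66, 4.96 and 5.30 in HFD-fed Lama4 AKO mice. The 3 lowest of the HFD-fed Lama4 fl/fl mice lay below every chow-fed Lama4 fl/fl mouse and 1 lay above, so the groups overlapped. Between diets the log2 fold change was -0.06 in Lama4 fl/fl mice (SE 0.23, adjusted p = 0.952) and -0.42 in Lama4 AKO mice (SE 0.23, adjusted p = 0.172). Between genotypes it was 0.28 on chow (adjusted p = 0.952) and -0.08 on HFD (adjusted p = 0.879). In the 19 mice the diet contrasts were -0.59 in Lama4 fl/fl mice (adjusted p = 0.0538) and -0.53 in Lama4 AKO mice (adjusted p = 0.0275); 40.3% of all genes reached an adjusted p of 0.05 in the latter.

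**Figure D2:**
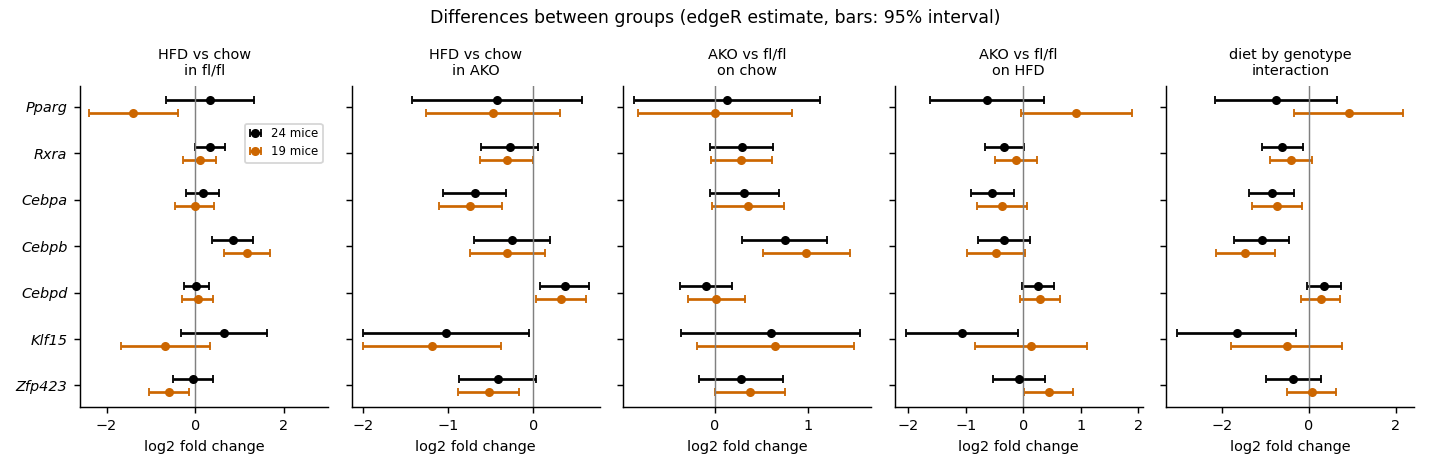
Points give the edgeR log2 fold change of each gene in 5 comparisons for 24 mice (black) and 19 mice (orange). Bars give a 95% interval from the SE and a normal distribution, which is narrower than the edgeR test allows. In the 24 mice the bars of Klf15 in Lama4 AKO mice and Rxra in Lama4 fl/fl mice, between diets, leave out 0. Their unadjusted edgeR p-values are 0.0505 and 0.0604. In both sets the intervals of Cebpa, Cebpd and Klf15 between diets in Lama4 AKO mice lie on 1 side of 0. So do those of Cebpb between diets in Lama4 fl/fl mice and between genotypes on chow, and those of Cebpa and Cebpb in the interaction. The estimates of Pparg and Klf15 change sides between the sets in Lama4 fl/fl mice and between genotypes on HFD. So do those of Cebpa in Lama4 fl/fl mice, Zfp423 between genotypes on HFD and Cebpd between genotypes on chow. In the interaction the estimates of Pparg and Zfp423 change sides.

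Set side by side, the 7 estimates had a median log2 fold change of 0.33 between diets in Lama4 fl/fl mice, with 6 of 7 above 0, and of -0.42 in Lama4 AKO mice, with 6 of 7 below 0. The median over all genes was -0.0081 and -0.0031 in these contrasts. Between genotypes the median was 0.29 on chow and -0.34 on HFD, against 0.0041 and -0.026 for all genes. In the interaction, 4 of 7 members had an unadjusted p under 0.05 (Cebpa, Cebpb, Rxra and Klf15, all negative), where 15.6% of all genes did, and none had an adjusted p under 0.235. Averaged over genotypes the lowest adjusted p of a member was 0.160, for Cebpa. In the 19 mice that averaged contrast had a median of -0.38, against 0.0018 for all genes, with 2 members above 0 and 5 below. Its adjusted p-values ran from 0.00363 (Zfp423, -0.56) to 0.480 (Rxra, -0.11), with 0.0210 for Pparg (-0.94). No member met the study's criteria there. The share of all genes in this averaged contrast is not given here, so its p-values are not read as particular to the members. Between diets in the 19 mice, 29% of all genes reached an adjusted p of 0.05 in Lama4 fl/fl mice and 40.3% in Lama4 AKO mice. With the 19 mice the median of the diet contrast in Lama4 fl/fl animals was -0.017, with 3 members above 0 and 4 below. There the median in the interaction was -0.41, and 2 of 7 members, Cebpa and Cebpb, had an unadjusted p under 0.05, where 12.2% of all genes did. The median in the contrast of genotypes on HFD was 0.14. These comparisons share groups of mice.

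Within groups, 5 of the 7 members covaried. After the mean of each group was taken off, Pearson's r over the 24 libraries exceeded 0.5 in 9 of the 21 pairs, all among Pparg, Rxra, Cebpa, Klf15 and Zfp423. The highest were Cebpa with Zfp423 (0.83), Pparg with Klf15 (0.80) and Cebpa with Rxra (0.80). Pparg and Cebpa themselves had an r of 0.31. Cebpb and Cebpd had a negative r with each of those 5 genes over the 24 libraries, down to -0.34 for Cebpa with Cebpd, and 0.27 with each other. Pparg with Cebpb, at -0.049, was 0.35 in the 19 mice. Pparg with Klf15 in the 19 mice was 0.70 and Pparg with Zfp423 0.19 (0.53 in 24). Over 23 libraries, without replicate 2 of the HFD-fed floxed controls (a set chosen after seeing the data), Pparg with Klf15 was 0.63, Cebpa with Klf15 0.81 (0.64 in 24) and Pparg with Cebpa 0.43. All genes of a library share its depth and its mix of cells, and these values are a description.

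**Figure D3:**
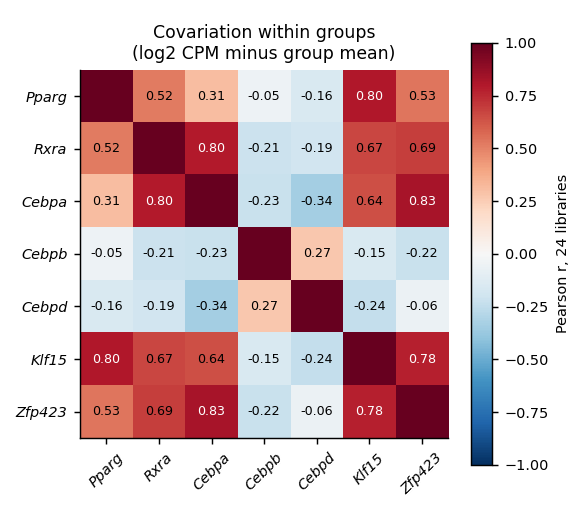
Each cell gives Pearson's r between 2 members over 24 libraries after the group means were removed, from -1 (blue) to 1 (red). Pparg, Rxra, Cebpa, Klf15 and Zfp423 form a red block, from 0.31 to 0.83, and Cebpb and Cebpd lie in pale blue against them.

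The level of adipocyte genes moved with several members. Of the 6 adipocyte markers (Adipoq, Plin1, Cidec, Lep, Cfd and Fabp4), none was at 0 in any library. Their summed CPM had a mean of 31098 in chow-fed and 22491 in HFD-fed Lama4 fl/fl mice, and of 26386 in chow-fed and 11702 in HFD-fed Lama4 AKO mice, with a range of 8097 to 23262 in the last group. Over 8 macrophage markers the mean sum was 6475 and 6637 in chow-fed and HFD-fed Lama4 fl/fl mice and 4213 and 9326 in the Lama4 AKO mice, and all 8 had higher estimates on HFD in Lama4 AKO mice, at a median log2 fold change of 1.17. In the same contrast 5 of 5 endothelial markers had lower estimates (median -0.79, 3 with an adjusted p of at most 0.05), as did 5 of 6 mesothelial markers (median -1.44). At that adjusted p 12.9% of all genes were lower. Among the mesothelial markers Msln, which encodes mesothelin, met the criteria at -2.36 (adjusted p = 0.0188). Of 8 stromal progenitor markers, 7 had higher estimates (median 0.50), and Pdgfra, a growth factor receptor of these cells, met the criteria at 0.69 (adjusted p = 0.0210). The criteria were met by 2.83% of all genes with a lower level and 1.29% with a higher one. In the 19 mice the median diet contrast of the adipocyte markers was -1.47 in Lama4 fl/fl and -1.37 in Lama4 AKO mice. The 24 mice gave -0.20 and -1.22. For macrophage markers the median in the 19 mice was 0.83 and 1.47, and for endothelial markers -0.72 and -0.89. Mesothelial markers had -0.31 and -1.56 there, and stromal progenitor markers 0.49 in both genotypes. The part of these marker shifts in the differences of Cebpa and of the target genes was not tested. Msln and Pdgfra were named after their values were seen. Stromal progenitor markers summed to 2710 to 5045 CPM, endothelial markers to 188 to 682, mesothelial markers to 10.1 to 158, lymphocyte markers to 1.90 to 49.3 and red cell markers to 1245 to 5676 CPM in single libraries. Of 5 markers of epididymal epithelium, Crisp1 and Lcn8 were not among the genes of the table, and the other 3 summed to at most 19.3 CPM. In bulk tissue, fewer cells of a type and less RNA per cell cannot be told apart.

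Within groups, the mean log2 CPM of the 6 adipocyte markers had an r of 0.94 with Zfp423, 0.83 with Cebpa, 0.82 with Klf15, 0.75 with Rxra and 0.57 with Pparg over the 24 libraries. It had an r of -0.34 with Cebpb and -0.26 with Cebpd. Over the 19 mice the value was 0.18 for Pparg, 0.87 for Cebpa, 0.62 for Klf15, 0.69 for Rxra and 0.89 for Zfp423. It was -0.50 for Cebpb and -0.54 for Cebpd. Over the 23 libraries without that replicate 2 it was 0.62 for Pparg and 0.90 for Klf15. The part of the adipocyte markers in the difference of Cebpa between diets in Lama4 AKO mice was not tested. Relative to the marker mean, Cebpa was 0.68 log2 units higher on HFD than on chow in those mice (two-sided exact permutation test, p = 0.0303), against -0.69 in its own level. Of the 7 members, 6 were higher on this relative scale with an exact p under 0.05, as were 76% of all genes tested, which leaves the members near the share of all genes. The smallest p that 6 against 6 mice allow is 0.00216, and 28 such tests were made.

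**Figure D4:**
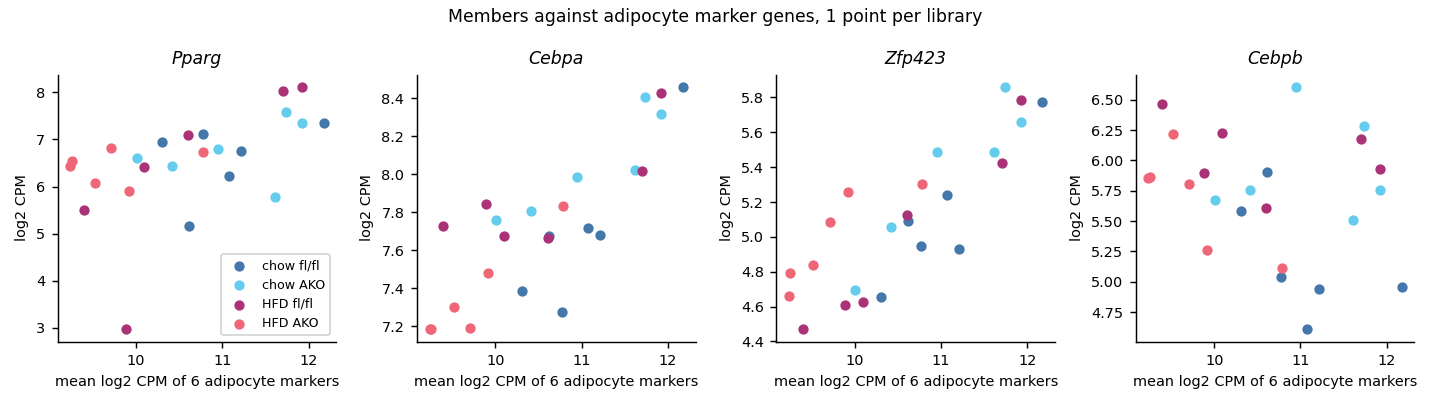
Each point is 1 library, with the mean log2 CPM of 6 adipocyte markers on the x axis and the log2 CPM of Pparg, Cebpa, Zfp423 or Cebpb on the y axis, coloured by group. Cebpa and Zfp423 lie higher where the markers do, Pparg has 1 library far below the rest at 2.97, and Cebpb has no such slope.

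Genes known as targets of PPARγ or C/EBPα in fat cells were followed through a list of 30. The list was read without a direction of regulation for each gene, so a lower level does not measure the activity of either factor. All 30 were tested. Between diets in Lama4 AKO mice, 28 of 30 estimates were below 0, 11 had an adjusted p of at most 0.05 and all 11 were lower on HFD, where 12.9% of all genes were lower at that adjusted p. The median of the list was -0.96 against -0.0031 for all genes. One of them, Lep, which encodes the satiety hormone leptin, met the study's criteria with a lower level, as did 2.83% of all genes. Its median log2 CPM was 11.59 on chow and 8.92 on HFD in Lama4 AKO mice, a log2 fold change of -2.10 (SE 0.51, adjusted p = 0.0170). No target met the criteria without chow-fed Lama4 AKO replicate 3 or without HFD-fed Lama4 AKO replicate 1, 2, 4 or 5. There were 3 without chow-fed Lama4 fl/fl replicate 1 or chow-fed Lama4 AKO replicate 5 or 6, and 2 without chow-fed Lama4 AKO replicate 4 or HFD-fed Lama4 AKO replicate 6. The number was 3 with DESeq2, 4 with only the groups compared, 6 with 18 mice (the 19 less replicate 2 of the HFD-fed floxed controls), 9 with the 19 mice and 13 with limma-voom on those. Of all genes in the 19 mice, 15.7% met the criteria in either direction, while all 9 targets were lower. No share of all genes is given here for the other alternatives, so these numbers do not show a change particular to the targets. In the 19 mice 22 targets had an adjusted p of at most 0.05, all lower on HFD. That adjusted p was reached by 40.3% of all genes there, in either direction.

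In Lama4 fl/fl mice no target had an unadjusted p under 0.05 between diets in the 24 mice, against 9.01% of all genes, and the median of the list was -0.05. The 2 targets with the lowest p there were Acsl1, which activates fatty acids, at -0.53 (adjusted p = 0.557) and Hcar1, the lactate receptor of fat cells, at -0.46 (adjusted p = 0.600). With the 19 mice the median in Lama4 fl/fl mice was -0.89, beside -1.08 in Lama4 AKO mice. Between genotypes on HFD 13 of 30 had an unadjusted p under 0.05, all lower in Lama4 AKO mice, where 8.99% of all genes did, and the lowest adjusted p was 0.291. The lowest p belonged to Retn, which encodes resistin, at -2.50, and Me1, malic enzyme, at -0.79. With 19 mice the median of that contrast was 0.09, and no target had an unadjusted p under 0.05, against 11.1% of all genes. On chow the median between genotypes was 0.10, and Lep had the lowest p at 1.16 (adjusted p = 0.824), followed by Dgat2, an enzyme of triglyceride synthesis, at 0.63 (adjusted p = 0.906). No target had an adjusted p under 0.05 in the interaction, whose median was -0.90 with 3 of 30 above 0, and whose lowest p belonged to Lep (-2.38, adjusted p = 0.235) and Dgat2 (-1.44, adjusted p = 0.244). With 19 mice that median was -0.11, with 12 of 30 above 0.

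**Figure D5:**
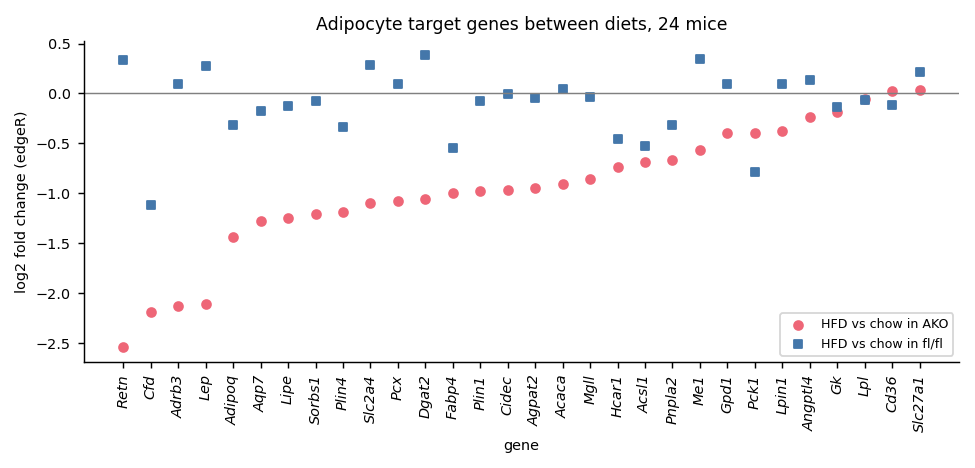
Each gene of the target list has its edgeR log2 fold change of HFD against chow in Lama4 AKO mice (circles) and in Lama4 fl/fl mice (squares), 24 mice, ordered by the first. In Lama4 AKO mice 28 of 30 lie below 0, down to -2.54, and in Lama4 fl/fl mice 18 of 30 do.

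Within groups the mean log2 CPM of the 30 targets followed the members much as the adipocyte markers did. Its r was 0.93 with Zfp423, 0.85 with Cebpa and with Klf15, 0.81 with Rxra and 0.63 with Pparg (0.33 in the 19 mice), and -0.25 and -0.27 with Cebpb and Cebpd. In the 19 mice the r was 0.88 with Zfp423, 0.90 with Cebpa, 0.77 with Rxra and 0.69 with Klf15. With Cebpb and Cebpd it was -0.35 and -0.55 in those mice. Of the adipocyte markers, Adipoq, Plin1, Cidec, Lep, Cfd and Fabp4 are also in the target list.

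The other proteins of the network were read in 3 lists. Of 21 partners and cofactors, none met the criteria in any comparison of the 24 mice, and 3 had an adjusted p of at most 0.05 between diets in Lama4 AKO mice, all lower on HFD, beside 12.9% of all genes lower at that adjusted p, a share near that of the list. These were Ddit3, whose product CHOP dimerises with C/EBP proteins and blocks their binding, at -0.44 (adjusted p = 0.0330), Nrip1, a nuclear receptor corepressor, at -1.21 (adjusted p = 0.0362), and Ppara, the fatty acid receptor related to PPARγ, at -1.95 (adjusted p = 0.0441). Ppara was named after its value was seen. In Lama4 fl/fl mice the lowest p of this list belonged to Ppard, a second relative of PPARγ (0.36, adjusted p = 0.643), and Ppargc1a, a coactivator (-0.72, adjusted p = 0.666).

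With HFD-fed Lama4 AKO replicate 6 left out, 1 partner met the criteria in Lama4 AKO mice. In the 19 mice 1 did so (Nrip1, -1.33, adjusted p = 0.00177), where 15.7% of all genes did. Between diets in Lama4 fl/fl animals, 5 partners met them in the 19 mice, where 11.8% of all genes did. Ppard was higher on HFD at 0.85 (adjusted p = 0.00735). Ppargc1a (-2.43), Nrip1 (-1.42), Cebpg (-1.0) and Cebpz (-0.95) were lower, at adjusted p-values of at most 0.00754. Cebpg and Cebpz were named after their values were seen.

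Of 17 other activators of fat cell formation, none met the criteria in the 24 mice and up to 2 did with single mice left out (2 without chow-fed Lama4 AKO replicate 5). Between diets in Lama4 AKO mice Stat5b, a growth hormone effector, was higher at 0.47 (adjusted p = 0.0271) and Egr2, an early zinc-finger factor, at 1.48 (adjusted p = 0.0415), while Bmpr1a, a BMP receptor, was lower at -1.06 (adjusted p = 0.0258) and Nr3c1, the glucocorticoid receptor, at -0.56 (adjusted p = 0.0344). Of all genes, 9.13% were higher and 12.9% lower at that adjusted p. Egr2 and Nr3c1 were named after their values were seen. In Lama4 fl/fl mice Stat5b was at 0.39 (adjusted p = 0.448) and Creb1, which acts upstream of Cebpb, at -0.19 (adjusted p = 0.636). In the 19 mice Stat5b met the criteria there at 0.68 (adjusted p = 0.00173), as did 11.8% of all genes. Nr3c1 was at -0.62 (adjusted p = 0.00790) and Creb1 at -0.42 (adjusted p = 0.0103), where 29% of all genes reached an adjusted p of 0.05. In Lama4 AKO mice of that set Stat5b was at 0.53 (adjusted p = 0.00204), where 40.3% of all genes reached it.

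Of 12 inhibitors, 10 were tested, and 3 met the criteria between diets in Lama4 AKO mice. Of these, 1 was higher (1.29% of all genes) and 2 were lower (2.83% of all genes). Gata2, a GATA factor that represses Pparg, rose from a median log2 CPM of 2.65 to 4.0 (log2 fold change 1.27, SE 0.25, adjusted p = 0.0124). Klf3 fell from 7.14 to 5.60 (-1.30, SE 0.32, adjusted p = 0.0171), and so did Nr2f2, which encodes COUP-TFII, from 6.71 to 5.95 (-0.80, SE 0.20, adjusted p = 0.0174). Without HFD-fed Lama4 AKO replicate 1 or 4, the number of inhibitors that met the criteria was 1. Of the others, Wnt10b was not among the genes of the table. In Lama4 fl/fl mice Gata2 was at 0.56 (adjusted p = 0.516) and Klf3 at -0.61 (adjusted p = 0.573). In the 19 mice Klf3 met the criteria there too, at -1.52 (adjusted p = 0.000488), as did 11.8% of all genes, and Gata2 was at 0.81 (adjusted p = 0.0403). Averaged over genotypes, Gata2 was higher on HFD at 0.92 (adjusted p = 0.0113) and Klf3 lower at -0.96 (adjusted p = 0.0224). Both met the criteria, as did 2.25% of all genes.

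For each member, the 3 genes most like it were those with the highest within-group r over 24 libraries among 13343 named genes. Sucnr1, the succinate receptor, had an r of 0.97 with Pparg, followed by App (0.96) and Apba3 (0.96). Sucnr1 had the low library too: its lowest, median and highest log2 CPM in HFD-fed Lama4 fl/fl mice were 0.01, 4.86 and 6.85. Klf15 was most like Adhfe1 (0.96), Mccc1 (0.95) and Aldh6a1 (0.95), and Zfp423 was most like Ppm1m (0.96), Ppp1r9a (0.95) and Klf14 (0.95). Cebpa was most like Sh3glb2 (0.93), Uck1 (0.92) and Mprip (0.92), and Rxra like Wipi2, Chst1 and Vegfb (0.89 each). The early factors had weaker likenesses. Among the genes most like Cebpb were Ppard (0.84) and Pfdn2 (0.83). Cebpd was most like Jak2 (0.79), Socs1 (0.65) and Bop1 (0.64). Over the 19 mice the r of Pparg with Sucnr1 was 0.97 and that of Cebpd with Jak2 0.80. Over the 23 libraries without replicate 2 of the HFD-fed floxed controls, Pparg with Sucnr1 was 0.95, with App 0.91 and with Apba3 0.92, and Klf15 with Adhfe1 was 0.93.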

How the data were processed

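RNA of 24 eWAT samples was sequenced with QuantSeq, which the authors mapped and counted on the Bluebee platform with Lexogen's QuantSeq pipeline. The deposited table holds raw counts per gene. The other deposited file gives these counts after division by size factors, a normalized signal, and was used here for gene symbols and positions on GRCm38 only. The submitters' processing notes name R 4.0.3 and DESeq2 1.30.

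The analysis used edgeR 4.0.16 under R 4.3.3, with a filter of 1 CPM in 3 or more libraries, TMM factors, a quasi-likelihood fit with 1 coefficient per group to all 24 libraries, and Benjamini-Hochberg adjustment over 15020 genes. Levels are log2 CPM with a prior count of 2. Limma 3.58.1, DESeq2 1.42.0, RLE size factors, other filters, only the groups compared, a replicate block, 19 mice and each mouse left out were the alternatives. The fit was tested on simulated data. Symbols came from the deposited table for 14067 genes and from gene names of the reference for 2616 more. Genes named are the members, list genes that met the criteria (at most 4 by lowest p in each list and comparison, or the 2 with the lowest p where none did) and the 3 genes most like each member. One gene under this rule is not reported here. Single values were compared with exact permutation tests in scipy 1.17.1. The members and lists were chosen with earlier results of these data known. All pairs of libraries within groups differed by more than counting error. The labels say that each sample is a separate mouse. The labels do not link samples of the same number across groups. Of 36 same-numbered pairs, 15 had a correlation of deviations over 0.1, in a range of -0.53 to 0.71. Pairs of different numbers were not compared, so these values cannot decide whether mice are linked.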

Additional observations from a re-analysis of the deposited data

Results flagged for a closer look

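In 28 groups of 6 mice, the gap between the extreme mouse and its nearest neighbour was compared with the range of the group, and 3 exceeded Dixon's 95% critical value, where chance passes about 1 group in 20. Chow-fed Lama4 fl/fl replicate 1 was the highest of its group for Rxra (log2 CPM 6.38, ratio 0.745) and for Cebpa (8.46, ratio 0.628); it also had the highest adipocyte marker mean of all libraries, 12.17. Chow-fed Lama4 AKO replicate 6 was the highest of its group for Cebpd (5.39, ratio 0.633).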

How the results depend on the processing

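The number of members that met the criteria was 0 in each comparison and 1 under the following alternatives: between diets in Lama4 fl/fl mice with limma-voom, DESeq2, RLE size factors, 19 mice, 19 mice with limma-voom, or 18 mice (the 19 without HFD-fed Lama4 fl/fl replicate 2, chosen after seeing the data); between diets in Lama4 AKO mice with limma-voom, DESeq2, only the groups compared, 19 mice, 19 mice with limma-voom, or adjusted p-values; between genotypes on chow with 19 mice, 19 mice with limma-voom, or 18 mice; and in the interaction with DESeq2, 19 mice, 19 mice with limma-voom, or 18 mice. The gene was Cebpa between diets in Lama4 AKO mice and Cebpb otherwise. With single mice left out it ranged from 0 to 1 between diets in each genotype and between genotypes on chow, from 0 to 2 in the interaction (2, Cebpa and Rxra, with replicate 1 of the Lama4 fl/fl mice on chow left out), and was 0 between genotypes on HFD and between diets averaged over genotypes. Signs that turned, in the order 19 mice, 19 mice with limma-voom, 18 mice: between diets in Lama4 fl/fl mice, Pparg -1.40, -1.93 and -0.90 (and -0.23 with limma-voom on 24 mice), Klf15 -0.68, -0.84 and -0.22, and Cebpa -0.017 and -0.066 with 19 and 18 mice; between genotypes on HFD, Pparg 0.92, 1.46 and 0.42 (0.051 with limma-voom on 24 mice), Zfp423 0.44, 0.43 and 0.46, Lama4 0.14, 0.11 and 0.37, and Klf15 0.14 and 0.43 with 19 mice; between genotypes on chow, Cebpd 0.016, 0.027 and 0.016, and Pparg -0.10 with limma-voom; in the interaction, Pparg 0.92, 1.56 and 0.42 and Zfp423 0.067, 0.014 and 0.086; averaged over genotypes, Rxra -0.11, -0.078 and -0.094. With single mice left out, signs turned between diets in Lama4 fl/fl mice for Pparg (-0.0070 to 0.58), Cebpd (-0.064 to 0.084) and Zfp423 (-0.25 to 0.10), between genotypes for Pparg on chow (-0.064 to 0.29), Zfp423 on HFD (-0.18 to 0.11) and Lama4 on chow (-0.048 to 0.43), and averaged over genotypes for Pparg (-0.22 to 0.077) and Rxra (-0.032 to 0.12). The cause was not tested. With the replicate number as a block, 0 members met the criteria in each comparison. All 42 member values kept their sign and their side of the criteria, as they did with no filter on low counts and with filterByExpr. The labels do not pair the mice by number. Only the groups compared could not be used for the interaction or the average, which need all 4 groups.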
